A study of Homo sapiens with 6 samples.

Results

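The DDX genes encode RNA helicases that are named for the Asp-Glu-Ala-Asp (DEAD) motif of their ATP-binding core. They were examined here in PLC/PRF/5, an established line of human hepatocellular carcinoma. Members were chosen by symbol and transcript type alone: a symbol of DDX, a number and at most the letter A, B or X, with at least 1 protein-coding transcript. This gave 37 of the 60607 genes and 527 of the 234326 transcripts. No measured value enters the choice of a member. The family itself was picked with the knockdown and control values of these libraries known, so the differences below are a description and no evidence about the family. The symbol also takes in DDX11 and DDX58, helicases of other subfamilies.

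DEAD-box proteins use ATP to pry apart short RNA duplexes and to strip proteins from RNA. They act in each step of the life of an RNA: ribosome assembly in the nucleolus, splicing, export through the nuclear pore, translation and decay. Several of them drive the remodelling steps of the spliceosome before catalysis. The related DEAH-box (DHX) helicases drive the catalytic and later steps. SLU7, the protein knocked down in this study, is a splicing factor that acts in the joining of exons.

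The 3 knockdown libraries came from cells transfected with siRNAs against SLU7 (siSlu7), and the 3 control libraries from cells given siGL2, an irrelevant siRNA. All 6 came from the same line, with RNA taken 48 h after transfection. The labels call the libraries triplicates and do not say whether they were separate cultures, so a p-value here reflects the spread of these libraries alone, and that spread may be technical. The siRNA sequences are not used here, and the libraries are of whole populations of cells, in which fewer cells and less RNA per cell cannot be told apart.

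The controls held 7736584 to 8693977 estimated counts and the knockdowns 5191452 to 6315740. Mitochondrial ribosomal RNA took 16.8% to 24.1% of counts in the controls and 29.9% to 35.3% in the knockdowns, and 7SL RNA took 14.8% to 22.0% and 7.69% to 10.1%. SLU7 itself was at 20.9, 17.1 and 18.4 CPM in the controls (counts scaled to a common library size) and at 9.38, 8.29 and 10.5 CPM after knockdown (log2 fold change -1.002, SE 0.18, edgeR adjusted p = 0.0139). In TPM, a scale explained below on which the median gene rose after knockdown, the SLU7 groups overlapped. It was at 4.69, 3.46 and 5.96 TPM in the controls and at 4.12, 4.34 and 4.67 after knockdown. All 13 liver cell markers looked at were above 1 CPM on average, but ALB was only at 21.0 to 25.8 CPM, against 11680 to 13810 for APOB. In the marker lists of other cells, COL3A1 was at 0 in all libraries and CD3E and VWF reached at most 0.134 and 0.268 CPM. LYZ and CD68, which leukocytes express, were at 27.5 to 43.7 and 16.8 to 27.4 CPM, and PTPRC was at 0.377 to 0.511 CPM in the controls and 1.495 to 2.03 in the knockdowns. Summed over each list, the 4 leukocyte markers were at 48.7 to 66.5 CPM in the controls and 48.0 to 53.8 after knockdown, the 4 fibroblast markers at 1.005 to 3.20 and 1.68 to 3.38, and the 3 endothelial markers at 3.45 to 3.88 and 3.32 to 4.86. A run without structural and mitochondrial RNA called the same 6 DDX genes higher as given below. The part of these shifts in the results was otherwise not tested. Control replicate 1 and knockdown replicate 3 held the extreme value of several genes below, and values without both are given there. Leaving out libraries with extreme values narrows the spread by itself and leaves fewer libraries per group. Passing the test in that run is thus a description and no support for a change. Across genes the deviations of control replicate 1 and knockdown replicate 3 from the group means correlated at r = 0.475. Those of control replicate 3 and knockdown replicate 1 correlated at 0.418. Deviations within a group of 3 are not independent.

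Sequences are shown of introns kept in some of the transcripts described below, the shortest that qualified in each, and of an exon left out of DDX5-203. Other transcripts also enter the class shares. Of the genes with an intron shown, only DDX41 passed the class usage test described below. Whether the class shares turn on these introns was not tested. The sequences were read from GENCODE 29 transcripts (GRCh38), 5′ to 3′ on the strand of the gene. In whole introns and intron ends, the capitals mark the GT and AG at the splice sites. The pair of DDX41 introns kept in transcript DDX41-217 lie at chr5:177515990-177516118 and chr5:177515822-177515928 (minus strand), between exons of coding transcripts. They are 129 and 107 bases long.
DDX41 intron of 129 bases: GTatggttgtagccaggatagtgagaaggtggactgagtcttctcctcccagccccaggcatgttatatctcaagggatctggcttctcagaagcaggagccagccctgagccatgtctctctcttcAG
DDX41 intron of 107 bases: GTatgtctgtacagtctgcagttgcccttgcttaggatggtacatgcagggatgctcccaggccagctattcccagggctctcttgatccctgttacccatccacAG
For longer introns the last 24 bases and 6 bases of the next exon are given, the stretch where the AG is chosen for the joining of exons. Those introns lie at chr6:31532912-31534485 in DDX39B, chr12:132141021-132141274 in DDX51, chr14:94055185-94057821 in DDX24, chr12:48837658-48837941 in DDX23 (all minus strand) and chr12:12823320-12823869 in DDX47 (plus strand).
DDX39B intron end: ccccacccccttcctcccccccAGccaatg
DDX51 intron end: cagcaacacccccttctcttccAGcacctg
DDX24 intron end: atctcccagttcttcctgtggcAGgtccca
DDX23 intron end: agctttgctttctttggtctgcAGaagatc
DDX47 intron end: tattgttttgggtttgtaacttAGgatacc
The exon shown, of 97 bases at chr17:64504222-64504318 (minus strand), is part of the coding transcript DDX5-210 and left out of DDX5-203. Its length is not a multiple of 3. The junction that leaves it out runs from the preceding exon (lower case) to the following one (capitals).
DDX5 exon: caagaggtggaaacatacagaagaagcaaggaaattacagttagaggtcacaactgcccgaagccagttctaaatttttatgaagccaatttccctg
DDX5-203 junction: gctaggcgcacagcaCAAATGTCATGGATG

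These introns were not alike in length or in their 3′ ends. Pyrimidines made up 95.0% of the 20 bases before the AG in DDX39B, 80.0% in DDX51 and DDX23, 75.0% in DDX24 and in the longer DDX41 intron, 70.0% in the shorter one and 65.0% in DDX47. In GENCODE 29, 94 introns in 20 DDX genes were removed from a coding transcript and kept in a detected retained-intron transcript of the same gene. Very short introns, introns without GT and AG ends and retained-intron transcripts of another length than the deposited ones were left out. The median length of these 94 introns was 333.5 bases. Their median GC content was 46.5% and their median pyrimidine share in those 20 bases 75.0%. Over all genes, 9141 such introns had medians of 271.0 bases, 56.2% and 75.0%.

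The family spanned a wide range of levels. Levels of different genes are compared in TPM, a share of all transcripts that is corrected for transcript length. In the controls DDX17 had the highest mean, followed by DDX3X, DDX5, DDX56, DDX11 and DDX41. DDX17, a cofactor of transcription and splicing, was at 204.1, 124.8 and 154.7 TPM in the controls, against 227.8, 245.7 and 284.0 in the knockdowns. DDX3X, which helps ribosomes start on structured mRNAs, was at 325.4, 41.9 and 74.6 TPM, and at 130.2, 211.3 and 474.9 in the knockdowns. Its order in the family thus differed between libraries: it led in control replicate 1 and lay below DDX5 in the other controls.

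DDX5, the close paralog of DDX17, was at 81.2, 49.5 and 89.1 TPM in the controls, against 114.9, 96.8 and 100.2 in the knockdowns. DDX56, a nucleolar helicase of large-subunit assembly, was at 69.5, 24.6 and 32.5 TPM and at 110.5, 132.3 and 277.9. For DDX11, a DNA helicase of sister chromatid cohesion, the TPM values were 50.1, 29.1 and 45.3, and 74.3, 79.0 and 96.4. DDX41, a helicase found in catalytically active spliceosomes, was at 42.6, 21.3 and 27.9 TPM and at 46.8, 53.3 and 74.4. The control values of DDX56, DDX11 and DDX41 overlapped, so their order is within the spread. TPM rose in the knockdowns for the median of all genes tested, by 0.352 on the log2(TPM + 1) scale, so a higher TPM there is not by itself a change of a gene relative to others; changes are therefore given from CPM.

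**Figure D1:**
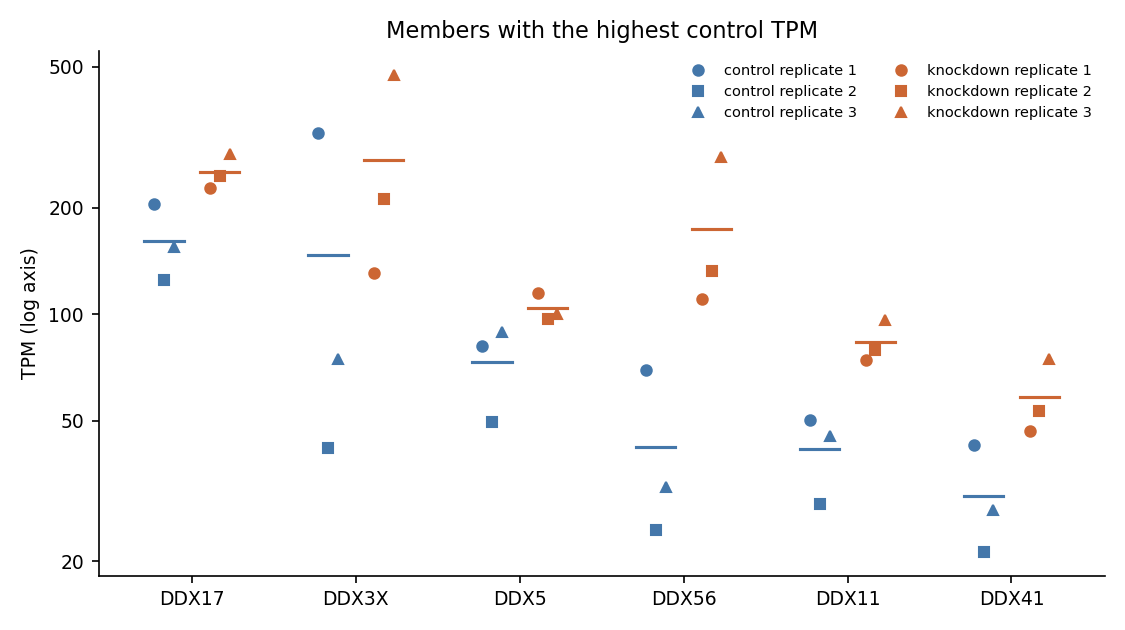
TPM per library (log axis) of the 6 DDX genes with the highest mean control TPM; blue points are controls, orange points knockdowns, symbols the replicate numbers and lines the group means. DDX3X reached 325.4 TPM in control replicate 1 and 474.9 in knockdown replicate 3, far above the other libraries of each group.

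Of the 37 genes, 33 held enough counts to be tested. The germ-line helicase genes DDX4, DDX25 and DDX53 and the antiviral gene DDX60 did not. DDX4, known as VASA, had at most 3.0 estimated counts in any library, DDX25 at most 11.7 and DDX53 at most 6.0. DDX60 had 4.0, 3.4 and 3.2 counts in the controls, against 8.6, 6.6 and 7.7 in the knockdowns.

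With SLU7 knocked down, 6 of the 33 genes tested passed the whole-table test as higher and 0 as lower (edgeR quasi-likelihood test, Benjamini-Hochberg adjusted over 17109 genes, threshold 0.05). Over all genes tested, 5.93% were called higher and 7.93% lower. At an unadjusted p under 0.05, 11 members were higher and 1, DDX50, lower, together 36.4% of the 33, against 32.0% of all genes; DESeq2 also called 0 members lower. The genes that rose were DDX55, DDX31, DDX47, DDX51, DDX42 and DDX20, of which the first 4 act in ribosome assembly. The median log2 fold change was 0.32 over the 33 genes and -0.01 over all genes tested, and 26 of the 33 lay above 0. In CPM, 12 of the 33 had all knockdowns above all controls and 1 all below, against 17.8% and 18.8% of all genes.

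The count of 6 moved with the libraries used. Without control replicate 1 and knockdown replicate 3 it was 19 higher and 1 lower, where 14.1% and 15.7% of all genes were called. Without control replicate 1 alone it was 16 higher and 1 lower, where 11.7% and 13.6% of all genes were called. The count was 3 without control replicate 2 (1.0% of all genes higher), control replicate 3 (1.29%) or knockdown replicate 3 (2.34%), and 2 without knockdown replicate 1 (0.872%). Without knockdown replicate 2 edgeR called 0 members and 0.0% of the whole table, with 4244 genes and 10 members at an unadjusted p under 0.05. With offsets for transcript length DDX42 (0.73) and DDX20 (0.56) did not pass, nor did they with offsets for GC content (0.72 and 0.49).

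**Figure D2:**
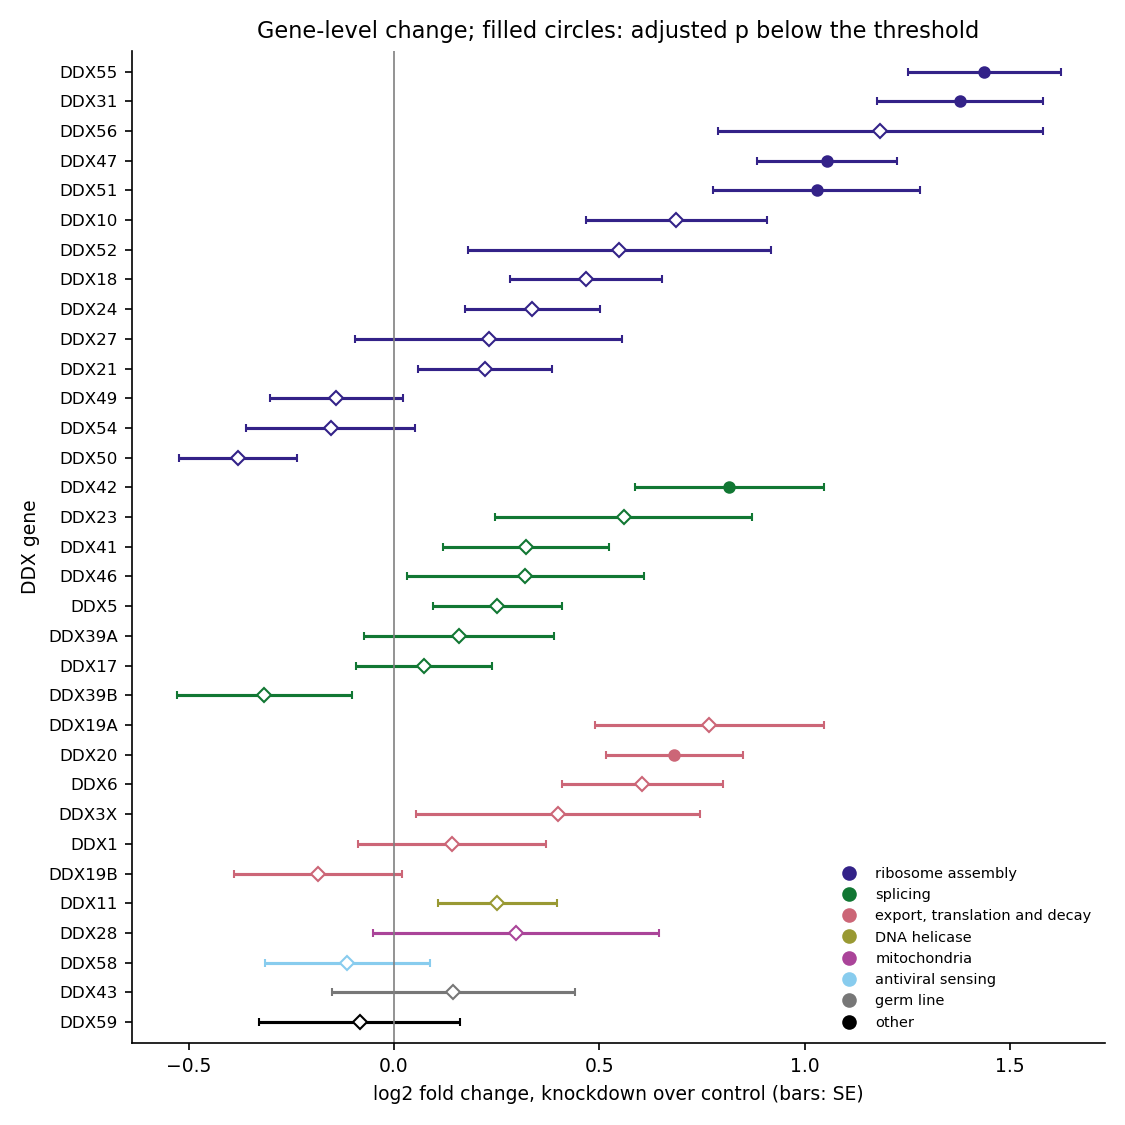
Log2 fold change of knockdown over control (horizontal axis; bars are SE, n = 3 libraries per group) for the 33 DDX genes tested, ordered by role; filled circles passed the whole-table test. The 6 filled circles lie between 0.68 and 1.44, and 7 genes lie below 0, down to DDX50 at -0.38.

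Genes of ribosome assembly made up 14 members, all tested: 4 rose, 0 fell (1 at an unadjusted p under 0.05) and 10 did not pass. Their median log2 fold change was 0.51. DDX55, a nucleolar helicase of the large subunit, was at 22.4, 14.9 and 19.0 CPM in the controls, against 46.8, 49.4 and 56.4 in the knockdowns. No knockdown value came near the controls (log2 fold change 1.44, SE 0.19, edgeR adjusted p = 0.00882). DDX31, another large-subunit factor, was at 12.9, 10.4 and 13.2 CPM against 27.1, 28.6 and 39.6. Its lowest knockdown value was above each control (log2 fold change 1.38, SE 0.20, edgeR adjusted p = 0.00947).

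DDX47, which acts on the precursor of the small subunit, was at 23.1, 16.7 and 19.7 CPM in the controls, against 43.7, 37.8 and 42.2 in the knockdowns. The groups did not overlap, and the log2 fold change was 1.05 (SE 0.17, edgeR adjusted p = 0.0102). DDX51, which helps mature large-subunit rRNA, was the lowest of the 6, at 5.40, 4.96 and 6.90 CPM against 11.7, 8.85 and 14.8. Its counts were 36.6 to 54.2 per control library and 48.1 to 79.0 per knockdown library, and the difference was 1.03 on the log2 scale (SE 0.25, edgeR adjusted p = 0.0310).

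The other 10 genes of ribosome assembly ranged from 1.18 (DDX56) to -0.38 (DDX50) in log2 fold change. DDX56 was at 106.2, 52.8 and 53.9 CPM in the controls, against 103.4, 119.3 and 261.6 in the knockdowns, and the high knockdown value was that of replicate 3 (SE 0.40, edgeR adjusted p = 0.0778). Without control replicate 1 and knockdown replicate 3, the highest of each group, DDX56 differed by 1.06 and passed the test. DDX10, of small-subunit assembly, was at 39.5 ± 9.64 and 63.7 ± 13.2 CPM (SD, n = 3 each), and DDX18, of the large subunit, at 102.1 ± 22.8 and 141.2 ± 7.61. DDX21, a helicase of rRNA transcription and processing, was at 243.6 ± 30.8 and 284.2 ± 11.2 CPM, and its paralog DDX50 at 45.2 ± 4.37 and 34.8 ± 0.96. Both pairs of groups stood apart, DDX21 upward and DDX50 downward, without passing the test.

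DDX24 (68.0 ± 9.12 and 86.0 ± 11.5 CPM), DDX27 (79.5 ± 39.0 and 93.5 ± 23.8) and DDX52 (53.8 ± 31.4 and 78.8 ± 21.7), also assembly factors, overlapped between the groups. DDX49 (26.0 ± 3.44 and 23.6 ± 0.998 CPM) and DDX54 (61.1 ± 9.35 and 54.9 ± 13.1) overlapped as well, at log2 fold changes of -0.14 and -0.15. In DDX27 and DDX52 control replicate 1 held the highest value of its group, 124.5 CPM and 89.7 CPM. Their log2 fold changes were 0.23 and 0.55 with all libraries, and 0.52 and 0.89, past the test, without control replicate 1 and knockdown replicate 3.

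Of the 8 splicing genes 1 rose, 0 fell (0 at an unadjusted p under 0.05) and 7 did not pass. DDX42, a helicase associated with the SF3b complex that recognises the branch site, was at 68.4, 37.2 and 44.6 CPM in the controls, against 75.4, 93.3 and 96.2 in the knockdowns. Control replicate 1 lay close below the lowest knockdown (log2 fold change 0.82, SE 0.23, edgeR adjusted p = 0.0477). DDX46, which acts with the same complex, was at 76.3 ± 33.8 and 95.3 ± 17.4 CPM (SD, n = 3 each) and overlapped. DDX23, which lets the tri-snRNP engage the 5′ splice site, was at 154.2, 77.2 and 83.8 CPM and at 112.1, 142.3 and 210.6. Its log2 fold change was 0.56 with all libraries and 0.66, past the test, without control replicate 1 and knockdown replicate 3.

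DDX5 was at 159.9, 139.0 and 173.4 CPM in the controls, against 196.9, 193.2 and 172.5 in the knockdowns, a log2 fold change of 0.25 (SE 0.16). DDX17 was at 716.5, 635.8 and 624.6 CPM and at 660.3, 727.0 and 693.0, a log2 fold change of 0.07 (SE 0.17). The values of both paralogs overlapped between the groups. DDX41 was at 67.2, 51.4 and 47.3 CPM against 56.8, 65.2 and 85.4 (log2 fold change 0.32, SE 0.20), with overlap. DDX39B, which loads splicing and export factors on mRNA, was at 60.9, 94.4 and 102.5 CPM and at 80.3, 63.8 and 63.0 (-0.32, SE 0.21). In DDX39B the low control was replicate 1, below every knockdown, and without it and knockdown replicate 3 the log2 fold change was -0.45 and passed. Its paralog DDX39A was at 28.4 ± 9.80 and 31.7 ± 1.22 CPM.

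The next 6 genes were grouped as export, translation and decay, with DDX20 placed among them for its part in RNP assembly. Of these DDX20 alone rose and 0 fell (0 at an unadjusted p under 0.05). DDX20, also called Gemin3, belongs to the SMN complex that builds the spliceosome's snRNPs. It was at 23.5, 25.7 and 30.7 CPM in the controls, against 41.1, 38.9 and 48.4 in the knockdowns. The groups did not overlap (log2 fold change 0.68, SE 0.17, edgeR adjusted p = 0.0308). DDX6, which represses translation and promotes decapping, was at 52.2 ± 8.13 and 79.4 ± 16.1 CPM (SD, n = 3 each), a log2 fold change of 0.61 that did not pass.

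DDX19A and DDX19B remodel mRNPs at the nuclear pore. DDX19A was at 74.1, 38.3 and 53.9 CPM in the controls, against 79.7, 75.6 and 128.4 in the knockdowns (log2 fold change 0.77, SE 0.28), and DDX19B at 25.9 ± 6.38 and 22.8 ± 2.31 (-0.18, SE 0.20). Both share part of their sequence with other genes, as given below. DDX3X was at 452.2, 187.0 and 218.5 CPM and at 295.0, 336.9 and 499.6, and control replicate 1 and knockdown replicate 3 held the highest value of each group. Its log2 fold change was 0.40 (SE 0.34) with them and 0.64, past the test, without them. DDX1, part of the tRNA ligase complex, was at 51.4 ± 17.6 and 56.8 ± 2.94 CPM.

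The remaining genes tested did not pass. DDX11 was at 90.0, 78.5 and 81.5 CPM in the controls, against 90.1, 100.1 and 107.6 in the knockdowns (log2 fold change 0.25, SE 0.14). DDX58, which encodes the viral RNA sensor RIG-I, was at 17.8 ± 2.16 and 16.5 ± 3.30 CPM (SD, n = 3 each). DDX28, a factor of the mitochondrial ribosome, was at 3.34 ± 1.31 and 4.08 ± 0.36, DDX59 at 6.09 ± 1.11 and 5.74 ± 0.81, and DDX43, a cancer-testis gene, at 20.4 ± 9.60 and 22.6 ± 2.40. DDX43 was thus the germ-line member with a measurable level in this line.

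**Figure D3:**
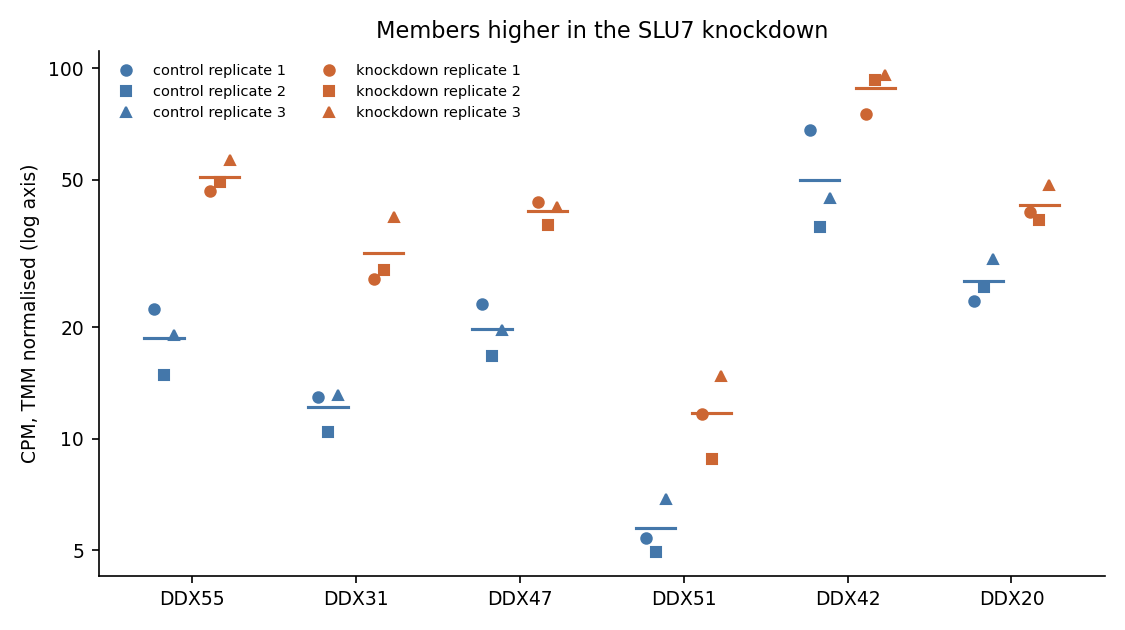
CPM per library (log axis, TMM normalised) of the 6 DDX genes called higher; blue points are controls, orange points knockdowns, symbols the replicate numbers and lines the group means. In each gene all knockdowns lie above all controls, by the least in DDX42, where control replicate 1 (68.4 CPM) lies next to knockdown replicate 1 (75.4 CPM).

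The DEAH-box helicases, counted in the same way, gave 3 higher and 0 lower of 15 tested (1 lower at an unadjusted p under 0.05), with a median log2 fold change of 0.26. Those that rose were DHX35 (1.53, SE 0.21), DHX36 (0.90, SE 0.19), which unwinds G-quadruplexes, and DHX33 (0.73, SE 0.19). Whether the families differ was not tested.

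A gene's counts were then split by the class of the transcript they were assigned to: protein-coding, retained-intron, nonsense-mediated decay (NMD) or other. Retained-intron transcripts keep an intron and are not annotated with a protein, and NMD transcripts carry an early stop. DDX41 showed the widest difference of the 29 genes compared in the coding share. Its coding share was 67.4%, 59.0% and 52.4% in the controls, against 11.8%, 20.2% and 15.4% in the knockdowns. The highest knockdown was far below the lowest control, and the mean went from 59.6% ± 7.54 to 15.8% ± 4.22 (SD, n = 3 each). The retained-intron share went from 17%, 28.5% and 33.0% to 53.8%, 42.9% and 41.3%, and the NMD share from 15.6%, 12.5% and 14.6% to 34.4%, 37.0% and 43.3%.

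DDX41 was the 1 of 29 members tested that passed the class usage test (edgeR diffSpliceDGE, Simes, adjusted p = 0.00852), against 2.41% of the 6838 genes tested. Without control replicate 1 and knockdown replicate 3, 6 members passed, namely DDX41, DDX39B, DDX11, DDX19A, DDX3X and DDX5, where 6.85% of all genes did. DDX41 was not past the threshold without control replicate 2 or without any 1 of the knockdown libraries (adjusted p = 0.0502 to 0.0704, edgeR), and its adjusted p ranged from 0.000706 to 0.162 over all alternatives.

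In DDX41 the coding transcript DDX41-201 held 156.0, 122.4 and 74.1 estimated counts in the controls, against 7.1, 41.1 and 17.3 in the knockdowns. The short coding transcript DDX41-219 held 204.9, 104.1 and 119.9 and then 36.3, 30.4 and 53.1. On the other side, the retained-intron transcript DDX41-217, which keeps both introns printed above, held 29.3, 17 and 26.7 counts and then 49.7, 36.8 and 48.8, in smaller libraries. DDX41-205 keeps both introns too and overlapped, at 33.0, 45.9 and 41.7 counts and then 48.4, 42.6 and 26.3. DDX41-203, of the NMD class, held 13.3, 0.0 and 0.0 counts in the controls, against 22.3, 29.3 and 64.3 in the knockdowns. The gene total of DDX41 thus overlapped between the groups while the coding part and the rest moved in opposite directions.

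Other members differed in their shares without passing the class test. In all, the coding share of 10 of 29 members was lower in every knockdown than in every control and of 0 higher, against 22.8% of genes lower and 4.0% higher. The retained-intron share of 11 of 28 was higher in every knockdown and of 0 lower, against 26.3% of genes higher and 2.77% lower. A single share of 3 against 3 libraries cannot reach a two-sided exact permutation p below 0.1.

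DDX39B had coding shares of 53.4%, 58.8% and 55.1% in the controls, against 25.5%, 29% and 38.0% in the knockdowns. Its retained-intron share went from 43.4% ± 2.51 to 67.6% ± 6.04 (SD, n = 3 each), most of it DDX39B-219, and the groups did not overlap. DDX39B-215, which also keeps the intron whose end is shown, went the other way, from 85.4, 23.8 and 8.0 estimated counts to 0.0 in each knockdown. The level of DDX39B-219 itself overlapped between the groups, at 30.3 ± 13.3 and 42.8 ± 10.5 CPM (SD, n = 3 each). The coding transcript DDX39B-202 held 158.2, 293.4 and 338.7 estimated counts and then 58.7, 10.1 and 60.4. DDX51 had coding shares of 64.5%, 73.6% and 56.8% against 27.2%, 32.0% and 44.0%. In DDX51 the only other class is retained intron, and DDX51-201, which keeps the intron whose end is shown, held 12.9, 6.5 and 18.6 counts and then 38.4, 26.0 and 33.8. The coding DDX51-202 held 28.0, 26.9 and 30.8 and then 20.6, 15.4 and 34.7. Scaled to CPM it was not lower on average, at 3.69 ± 0.22 and 4.16 ± 2.02 (SD, n = 3 each), with overlap.

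DDX24 had retained-intron shares of 25.4%, 19.0% and 32.7% in the controls, against 41.3%, 42.6% and 49.6% in the knockdowns, most of it from DDX24-207. DDX23 went from 10.4%, 6.84% and 12.6% to 23.2%, 20.1% and 23.1%, with DDX23-208 at 72.0, 18.3 and 29 counts and then 87.0, 89.4 and 209.8. Neither gene overlapped between the groups. In DDX47 the coding share was 47.3%, 59.8% and 71.2% and then 45.2%, 27.1% and 24%, so that control replicate 1 and knockdown replicate 1 nearly met. DDX47-212, with the intron shown, held 33.1, 28.9 and 18.8 counts and then 51.5, 56.2 and 66.8.

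**Figure D4:**
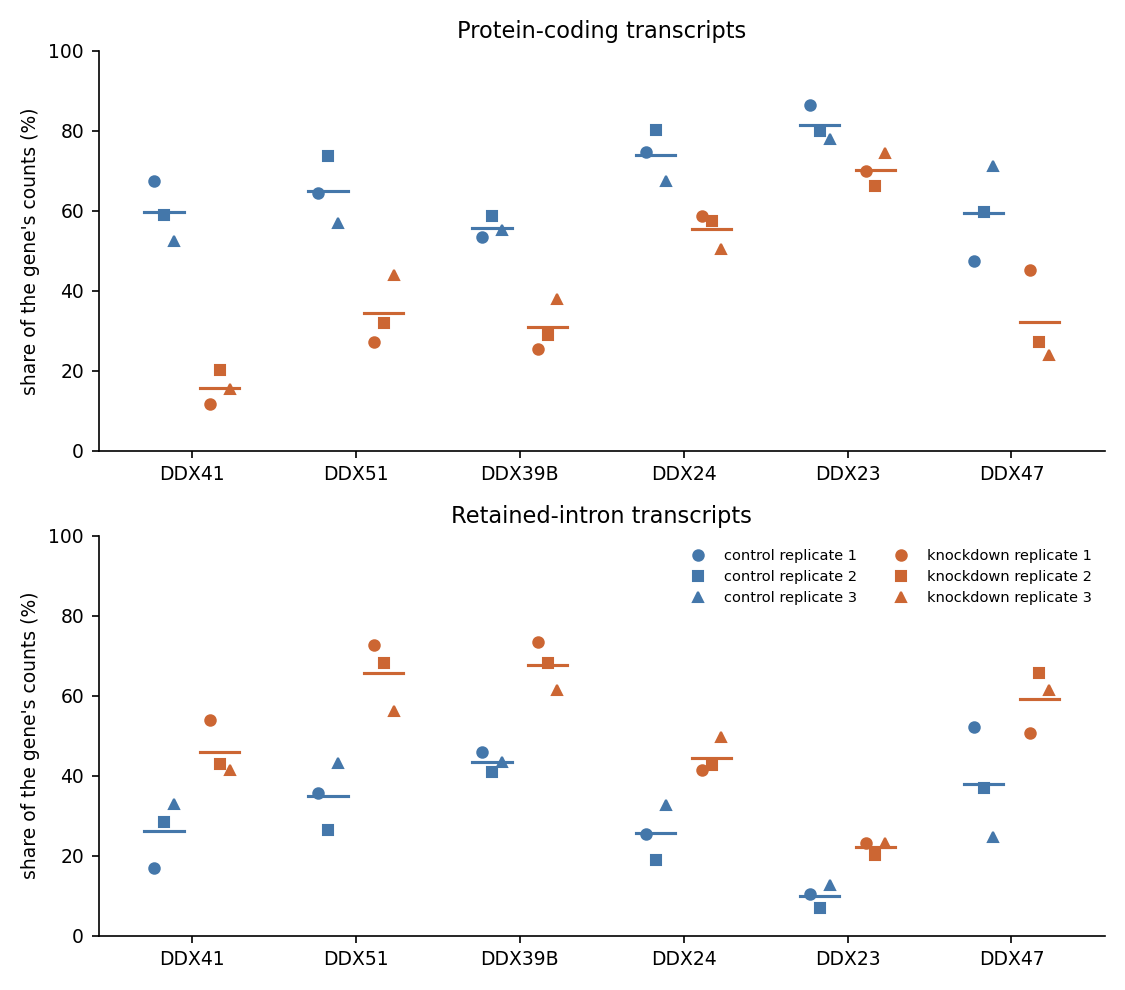
Share of each gene's estimated counts (%) in protein-coding (top) and retained-intron transcripts (bottom) per library; blue points are controls, orange points knockdowns, symbols the replicate numbers and lines the group means. DDX41 shows the widest gap in the coding share, 52.4% to 67.4% in the controls and 11.8% to 20.2% in the knockdowns, and the retained-intron shares of DDX47 overlap.

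The remaining members with a lower coding share in every knockdown were DDX39A (88.9% ± 4.65 and 68.5% ± 12.9), DDX52 (46.0% ± 21.2 and 20.3% ± 6.52), DDX55 (25.8% ± 11.1 and 14% ± 0.98) and DDX56 (13.3% ± 3.36 and 7.70% ± 3.11; SD, n = 3 each). A higher retained-intron share in every knockdown was also seen in DDX1, DDX11, DDX42, DDX54, DDX56 and DDX58. In DDX1, DDX11 and DDX58 the mean coding share was higher as well (8.28% and 19.1%, 24.4% and 31.1%, 34.3% and 41.4%), with overlap, and the mean NMD share lower. In DDX42 the retained-intron share went from 17.7% ± 4.98 to 32.1% ± 4.22. Its transcript DDX42-217 held 14.1, 18.9 and 7.1 counts and then 75.5, 64.2 and 51.1. DDX42-207 went from 9.9, 10.2 and 8.4 counts to 43.9, 32.1 and 30.8. DDX55 was mostly retained-intron in both groups (52.9% ± 10.4 and 64.7% ± 4.29), with overlap. DDX55-209 held 59.3, 40.3 and 61.1 counts and then 106.0, 118.0 and 98.3.

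Not every member moved this way. DDX5 had coding shares of 34.0%, 15.9% and 16.0% in the controls and then 33.9%, 36.8% and 35.4%, with overlap. DDX31, which rose at the gene level, kept coding shares of 91.4%, 82.2% and 97.0% in the controls, against 85.9%, 83.1% and 85.8% in the knockdowns. DDX6 (85.8% ± 4.30 and 83.3% ± 1.52), DDX10 (82.1% ± 5.70 and 81.8% ± 3.67) and DDX46 (94.2% ± 4.52 and 91.7% ± 4.33) overlapped as well. DDX20 was listed mostly in retained-intron transcripts in both groups (74.5% ± 23.9 and 87.1% ± 4.80). Its coding transcript DDX20-215 had 99.1, 0.0 and 1.6 counts in the controls, against 0.0, 4.0 and 0.0 in the knockdowns.

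The gene-level calls differed when only coding transcripts were counted. DDX31 and DDX10 were then higher (log2 fold changes 1.40 and 0.83) and DDX41 and DDX39B lower (-1.503 and -1.078), where 5.26% and 7.16% of all genes were called. DDX55 (0.60), DDX42 (0.55), DDX47 (0.31) and DDX51 (0.29) no longer passed, and DDX20 was at -2.23 without passing.

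For single transcripts the result that stood out was DDX5-203, the NMD transcript that leaves out the 97-base exon shown above. It had 106.4, 295.1 and 264.8 estimated counts in the controls, against 0.0 in each knockdown. Set against a floor of 3 counts over the knockdown group, this is at least 165.1-fold lower, if the assignment of reads to transcripts is taken as given. Tested as a single transcript, DDX5-203 did not pass (edgeR adjusted p = 0.0994). Exons were compared between DDX5-203 and DDX5-210 alone, so other DDX5 transcripts may share that junction. The coding DDX5-210 held 393.5, 121.3 and 172.2 counts and then 366.6, 339.6 and 271.8. These unscaled counts overlapped. In CPM every knockdown lay above every control (29.2 ± 17.7 and 56.6 ± 5.90, SD, n = 3 each), without passing as a single transcript. NMD transcript DDX5-238 held 59.2, 28.9 and 60 and then 107.9, 116.2 and 101.5, and retained-intron transcript DDX5-222 held 282.1, 149.5 and 330.0 and then 186.9, 100.5 and 58.4.

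DDX5 was the 1 of 31 members past the transcript usage test (edgeR diffSpliceDGE, Simes, adjusted p = 1.86e-10), against 2.9% of the 8869 genes tested. It passed in each alternative run, with adjusted p from 1.59e-10 to 0.0363. Tested one by one with edgeR, 0 of the 187 DDX transcripts passed, as did 0.0% of all 43128; 51 of the 187 (27.3%) were at an unadjusted p under 0.05, against 16.1% of all transcripts, and no other tool was run on single transcripts.

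**Figure D5:**
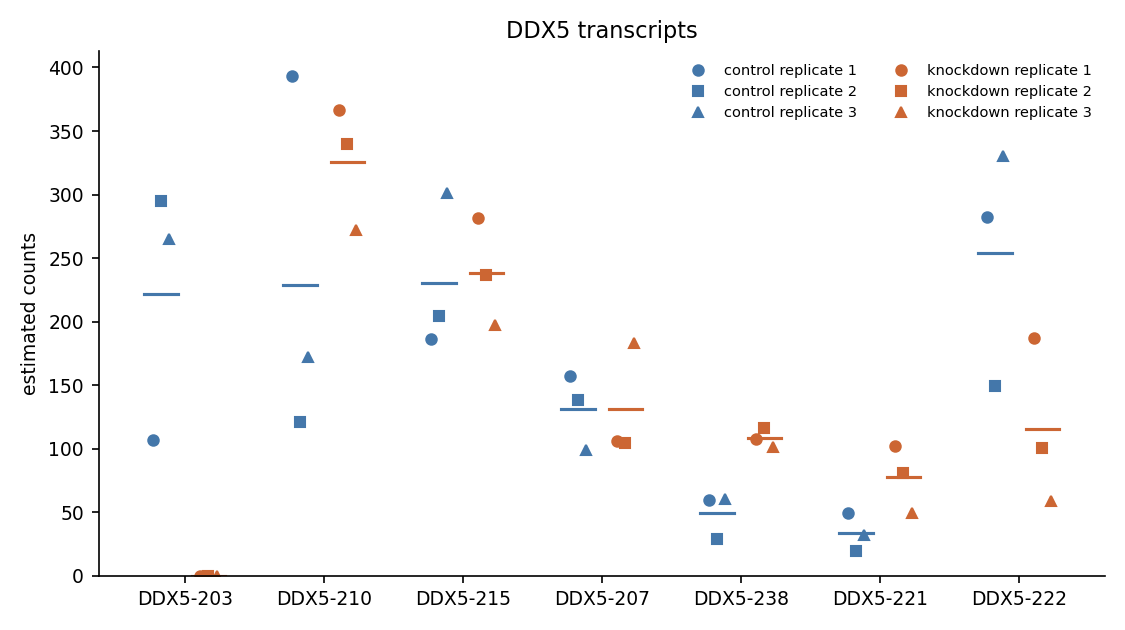
Estimated counts per library, not scaled for library size, of the 7 DDX5 transcripts with at least 5% of the gene's counts in a group; blue points are controls, orange points knockdowns, symbols the replicate numbers and lines the group means. DDX5-203 held 106.4 to 295.1 counts in the controls and 0.0 in the knockdowns.

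In some transcripts control replicate 1 and knockdown replicate 3 differed from the rest of their groups. DDX3X-255, a retained-intron transcript of 530 bases, held 1764.0, 110.4 and 213.6 counts in the controls, against 150.4, 379.9 and 1227.1 in the knockdowns. DDX56-202, of the NMD class, held 147.4, 0.0 and 12.7 and then 55.4, 65.4 and 563.4. DDX3X-253, also NMD, held 0.5, 383.5 and 331.2 and then 0.0 in each, so control replicate 1 looked like the knockdowns. The order of DDX3X and DDX56 in the family rests on these libraries. In DDX17 the most abundant transcript was DDX17-205, a processed transcript with no annotated protein, at 3578.3, 2207.3 and 2075.4 counts and then 2143.6, 2115.7 and 2433.9. Scaled to CPM it was at 336.8 ± 98.8 and 391.5 ± 62.5 (SD, n = 3 each), with overlap.

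Several members share sequence with other genes, and reads there could be split between them. Of the 31-base words in the coding transcripts of DDX47 (GENCODE 29), 96.6% also occur in APOLD1. APOLD1 was at 6.41, 2.81 and 3.96 CPM in the controls, against 2.46, 2.40 and 2.80 in the knockdowns, well below DDX47. For DDX39B the share was 69.3%, with the readthrough gene ATP6V1G2-DDX39B (at most 2.89 CPM). For DDX19A it was 63.1% and for DDX19B 41.9%, most with AC012184.2 (at most 3.64 CPM), and for DDX11 44.9%. The largest overlap of DDX11 was with AC009533.1, at 53.2, 43.3 and 46.5 CPM in the controls, against 32.6, 35.4 and 43.7 in the knockdowns. DDX50 shared 26.0%, most with DDX50P1. DDX55 shared 25.1%, most with EIF2B1, at 24.6, 20.9 and 20.6 CPM and then 24.6, 27.1 and 28.6. The values of these genes, those of the genes they share sequence with included, come from the same assignment of reads. They are uncertain to that extent, and cannot show how many reads were split.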

How the data were processed

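RNA of 6 libraries was measured; groups were taken from the treatment labels. A ScriptSeq kit for mRNA-Seq was used on polyA RNA, per the labels' protocols. The submitters' processing notes name FastQC 0.11.8, Trimmomatic 0.38, kallisto 0.46.1, sleuth 0.30.0 and the build GRCh38, with no role or order. The estimated counts per transcript were deposited by the authors without normalization, and the TPM values are, per the file headers, the authors' own. The sources used here give no strand setting or annotation release, so overlapping and antisense genes cannot be told apart.

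Estimated counts were summed per gene, with 159 pseudoautosomal Y records added to those on X, and rounded. edgeR 4.0.16 (R 4.3.3) was used with TMM, filterByExpr (minimum count 10, total 15), a quasi-likelihood test of the group term in all 6 libraries, and a threshold of 0.05 on Benjamini-Hochberg adjusted p; CPM values are TMM normalised. Class and transcript usage were tested with diffSpliceDGE. Procedures were tested on simulated data. Intervals cover counting and library spread only; totals per library set the depth. Alternatives were RLE size factors, other filters, a replicate block, libraries left out, DESeq2 1.42.0, limma 3.58.1 on log2(TPM + 1), length offsets, coding transcripts only, no structural or mitochondrial RNA, glmTreat, other usage tests and, added after seeing the data, GC content offsets.

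Members, role groups and lists were chosen with earlier results of these data known. Values per library are given for members past a test and for the 6 with the highest control TPM, and for others whose libraries differ widely. Transcripts named hold at least 5% of a gene's counts in a group. Their estimated counts are not scaled for library size, and the knockdown libraries were smaller. All 37 members have a position in GENCODE 29, whereas 466 of their 527 transcripts are in it, 408 at the same length. Protein sequences were not used here, and 1 intron sequence is not reported here.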

Additional observations from a re-analysis of the deposited data

How the results depend on the processing

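The number of DDX genes called higher, 6, was the same with RLE size factors, a stricter filter and no structural or mitochondrial RNA, and within 1.5 times with no filter (9), DESeq2 (8), length offsets (4) and GC content offsets (4). It was 11 with limma on log2(TPM + 1), a scale on which the median gene rose by 0.352 and 17.4% of all genes were called higher, 19 without control replicate 1 and knockdown replicate 3, 2 with coding transcripts only and 0 with glmTreat at 1.5-fold. Leaving out 1 library gave 0 to 16. The number lower, 0, became 1 without control replicate 1 and knockdown replicate 3, 2 with coding transcripts only and 1 with GC content offsets (DDX50), and 0 to 1 with 1 library left out. With coding transcripts only, DDX20 (-2.23, not past the test) and DDX41 (-1.503, past it) changed sign. DDX41 (0.32) had not passed the gene test with all transcripts. None of the other DDX genes called higher changed sign in any alternative run.

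Class usage calls among the DDX genes numbered 6 without control replicate 1 and knockdown replicate 3 (6.85% of all genes), 5 with the gene-level F test (8.72%), 5 with limma diffSplice (8.73%) and 0 to 5 with 1 library left out (0.416% to 6.26%). Transcript usage calls numbered 8 (9.36%), 2 (4.98%), 7 (2.92%) and 1 to 7 (1.57% to 8.7%) in the same settings. Single transcripts gave 0 calls in every alternative run.

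Deviations of same-numbered libraries correlated at -0.439, 0.126 and -0.413. Deviations within so small a group are not independent, so these values cannot decide whether the libraries were paired. With the replicate block, 0 DDX genes were called higher, 0 lower, 0 passed the class usage test and 1, DDX5, the transcript usage test; 0 of all genes were called by edgeR, with 4209 genes and 10 DDX genes at an unadjusted p under 0.05. Not every library correlated best with its own number. The cause of these differences was not tested. Depth limits DDX51, DDX28, DDX59 and the 4 genes not tested most, with at most 79.0 counts per library.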

Other observations

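The translation helicases of the EIF4A genes are DEAD-box proteins under other names and were measured beside the DDX genes. EIF4A2 was at 560.4 ± 136.5 CPM in the controls and 832.6 ± 9.49 in the knockdowns, and EIF4A1 at 431.2 ± 118.4 and 278.0 ± 18.8 (SD, n = 3 each). The groups did not overlap in either gene, one upward and one downward (log2 fold changes 0.57, SE 0.21, and -0.63, SE 0.21), and neither passed the whole-table test. EIF4A3, a core protein of the exon junction complex, was at 30.1 ± 2.74 and 39.8 ± 7.18 CPM, with overlap.

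Some members had large shares of their counts in NMD transcripts. In DDX1 the NMD share was 87.3%, 78.5% and 66.5% in the controls, against 45.1%, 67.8% and 48.1% in the knockdowns. Its transcript DDX1-215 held 467.4, 150.8 and 222.9 estimated counts and then 83.6, 124.3 and 104.2. Scaled to CPM, the DDX1-215 groups overlapped (35.8 ± 20.3 and 18.4 ± 5.11, SD, n = 3 each). In DDX56 it was 61.9% ± 6.46 and 59.9% ± 6.61. DDX52 had NMD shares of 71.8%, 20.4% and 43.3% in the controls, against 63.8%, 69.3% and 82.3% in the knockdowns.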
